A study of Homo sapiens with 5 samples.

Results

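The genes described here are LIN28B, TRIM71 and 8 other mRNAs of the let-7 microRNA pathway, most of them oncofetal: HMGA2, IGF2BP1, IGF2BP2, IGF2BP3, IGDCC3, NRAS, SEMA4C and DIS3L2. They were picked by gene symbol, with no threshold on a measured value, though with earlier results of these data known, and they are 10 of the 18257 genes in the count table. All 10 had enough reads to be tested, among 12234 tested genes. None of the 10 passed edgeR's quasi-likelihood test in any of the 3 comparisons, while edgeR's likelihood ratio test called IGDCC3 in DICER1 against DROSHA siRNA. The likelihood ratio test called 130 of the 12234 genes there, and DESeq2 and limma called 0 of the 10. IGDCC3, which carries 4 let-7 seed matches, lay furthest above the mock in the DICER1 siRNA libraries, at 1.67-fold (95% interval 1.14 to 2.44), and not in the DROSHA siRNA libraries. It had 48 to 83 reads per library. With the DICER1 siRNAs TRIM71, with 8 matches, stood at 1.32-fold, and HMGA2, with 7, at 0.855-fold. NRAS lay below the mock in each of the 4 siRNA libraries, and LIN28B differed more between siRNAs against the same enzyme than between the groups.

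Poly(A) RNA was sequenced from a HEK293 line, a human embryonic kidney cell line, of the strain named HEK293 T-Rex FLAG:DICER1 FLP-IN, which all libraries share. There were 2 libraries of cells transfected with siRNAs against DICER1, 2 with siRNAs against DROSHA and 1 mock labelled as the control sample, all at 18 h. Within each pair the libraries were made with different siRNAs, numbered 1 and 2. The knockdowns address how binding by Dicer affects the regulation of mRNAs, with the DROSHA siRNAs and the mock as controls. By its name the strain carries a FLAG-tagged DICER1, and gene counts cannot separate its reads from those of the endogenous gene. Nothing in the labels ties the libraries to separate cultures. The p-values therefore describe these 5 libraries alone, with a spread drawn from the 2 siRNA pairs, since the mock is 1 library.

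The let-7 microRNAs are made in 2 cuts: DROSHA frees a hairpin from the primary transcript in the nucleus, and DICER1 cuts the hairpin to the mature microRNA in the cytoplasm. Mature let-7 pairs through its seed with 3' UTRs and lowers the stability and translation of those mRNAs, many of which are abundant in embryos and in tumours and silent in most adult tissues. LIN28B binds the let-7 hairpin and blocks its maturation, and its own mRNA is a let-7 target, so the pair forms a loop of mutual repression. TRIM71 is the human counterpart of lin-41, the let-7 target found in C. elegans.

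The mature sequences are shown because one seed defines which mRNAs can be let-7 targets. In the RefSeq table (GRCh38.p14) 11 mature names share the seed, bases 2 to 8, which is given in capitals here, 5′ to 3′. They differ in the bases after it, and let-7d and miR-4458 also begin with an A in place of a U. The shorter miR-4458 and miR-4500 make up the 11.
let-7a: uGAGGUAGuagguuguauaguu
let-7b: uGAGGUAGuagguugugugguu
let-7c: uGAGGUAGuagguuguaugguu
let-7d: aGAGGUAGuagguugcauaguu
let-7e: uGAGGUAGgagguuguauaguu
let-7f: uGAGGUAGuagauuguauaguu
let-7g: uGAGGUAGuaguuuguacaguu
let-7i: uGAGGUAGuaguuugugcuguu
miR-98: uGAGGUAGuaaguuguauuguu

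The hairpin of let-7a-1 is shown as the substrate both enzymes act on, with the mature strand in capitals. It lies at chr9:94175957-94176036 on the plus strand (GRCh38.p14) and is 80 nt long.
let-7a-1 hairpin: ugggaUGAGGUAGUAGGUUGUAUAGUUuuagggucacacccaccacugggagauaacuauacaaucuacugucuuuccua

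Seed matches were searched on the sense strand of 3' UTRs in GENCODE 29 (GRCh38). The motifs were CTACCTC, which pairs with bases 2 to 8, and TACCTCA, which pairs with bases 2 to 7 and is followed by an A. Where both overlap they form the 8-mer CTACCTCA, counted as 1 site. Of the tested genes with a coding transcript, 15.6% held at least 1 site and 3.65% at least one 8-mer in the transcript with the longest coding sequence. For each of the 10 genes the transcript with the most sites was used as well, a choice made after seeing that the longest-coding transcript of HMGA2, with a 3' UTR of 533 nt, holds 0 sites. A match is a description of the letters, not evidence of binding.

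On that transcript TRIM71 held 8 sites in 6015 nt of 3' UTR, 4 of them 8-mers. HMGA2 held 7 sites in 3003 nt, IGF2BP1 and LIN28B 5 each, IGDCC3 4, NRAS and IGF2BP2 2 each, and SEMA4C and IGF2BP3 1 each. DIS3L2 held 0 sites in 567 nt. LIN28B held 1 site on its longest-coding transcript, with 1696 nt of 3' UTR, against 5 in 4549 nt on the longer one. In IGDCC3 3 of the 4 sites were 8-mers, all in a 3' UTR of 1782 nt. The first site of each 3' UTR is printed on the mRNA sense strand with the match in capitals, since these are the letters through which let-7 could pair with the mRNAs followed here.
TRIM71, chromosome 3, 172 nt into the 3' UTR: aaagtacaacattgcttaagtcCTACCTCA
HMGA2, chromosome 12, 21 nt into the 3' UTR: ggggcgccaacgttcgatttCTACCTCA
LIN28B, chromosome 6, 44 nt into the 3' UTR: ttcctttacccggttgcaaagtCTACCTCA
IGF2BP1, chromosome 17, 1632 nt into the 3' UTR: gcaatgctgtgtgcgaagtaaaCTACCTCA
IGF2BP2, chromosome 3, 1304 nt into the 3' UTR: cgagaaaaacacacagaagaagCTACCTCA
IGF2BP3, chromosome 7, 560 nt into the 3' UTR: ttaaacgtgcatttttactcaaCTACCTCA
IGDCC3, chromosome 15, 452 nt into the 3' UTR: ttgctgttttggctctcagcacCTACCTCA
SEMA4C, chromosome 2, 67 nt into the 3' UTR: cctacttttgcacaggcaccagCTACCTCA
NRAS, chromosome 1, 186 nt into the 3' UTR: tatttgagaagttctcagaataaCTACCTC

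Of these 9 first sites, 8 are 8-mers. The first site of NRAS is a 7-mer, and NRAS has no 8-mer in its 3' UTR.

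**Figure D1:**
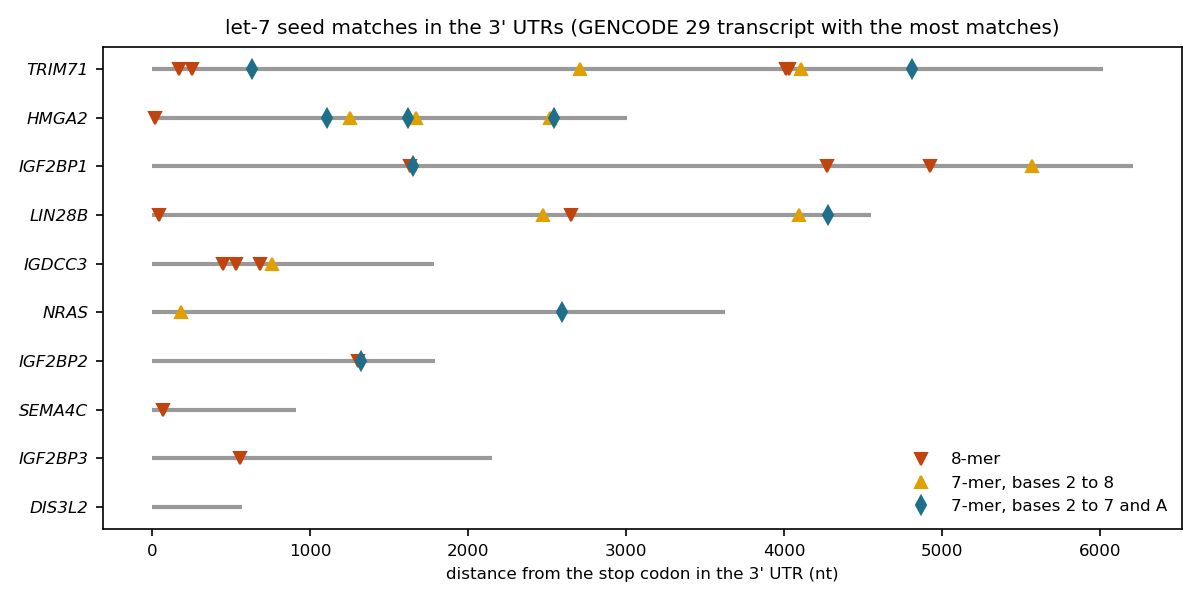
Each line is the 3' UTR of one gene, drawn to scale in nt from the stop codon, with let-7 seed matches marked by kind on the GENCODE 29 transcript with the most matches. TRIM71 has 8 matches, the 4 of IGDCC3 lie close together, and DIS3L2 has 0.

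The libraries held between 7620206 and 8736455 counts. DICER1 was at 74.1 and 67.7 CPM (counts scaled to the size of the library) in the DICER1 siRNA libraries, against 243 CPM in the mock, and DROSHA was at 41.2 and 41.9 CPM in the DROSHA siRNA libraries, against 191.5 CPM in the mock. Both fell past edgeR's test (log2 fold change −1.78 ± 0.12, adjusted p = 0.026, and −2.20 ± 0.09, adjusted p = 0.000882). With the DROSHA siRNAs DICER1 stood at 282 and 333 CPM. The spread within each pair of libraries exceeded sampling noise, and was widest for the DROSHA siRNA pair among 5 pairs compared (chi-square per degree of freedom 7.54) and narrowest for the DICER1 siRNA pair (2.61). All 9 markers of HEK293 cells were expressed, summing to 922 and 938 CPM with the DICER1 siRNAs, 842.5 and 810.1 CPM with the DROSHA siRNAs, and 848 CPM in the mock. Of 18 markers of other cell types, 2 passed the filter on low counts (HBB and COL1A1) and 4 were at 0 in every library. Their sums were 36.6 and 35.5 CPM with the DICER1 siRNAs, 31.7 and 29.2 CPM with the DROSHA siRNAs, and 34.7 CPM in the mock. The HEK293 markers were thus above the mock with the DICER1 siRNAs and below it with the DROSHA siRNAs, and their part in the results was not tested. In bulk RNA, fewer cells with an mRNA and less of it per cell cannot be told apart.

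Levels spanned a wide range. CPM values were divided by the length of the transcript with the most let-7 sites, in kb, to compare levels between genes. In the mock the order was NRAS at 44.6 CPM per kb, IGF2BP1 at 42.8, HMGA2 at 39.6, LIN28B at 23.2, IGF2BP2 at 20.9, IGF2BP3 at 11.7, DIS3L2 at 6.52, SEMA4C at 6.04, IGDCC3 at 1.38 and TRIM71 at 0.767. Over the 5 libraries the range of NRAS (31.8 to 44.6 CPM per kb) overlapped with those of HMGA2 (31.5 to 40.9) and IGF2BP1 (41.9 to 49.1). IGF2BP1 stood above HMGA2 in all 5 libraries. LIN28B (20.0 to 29.1 CPM per kb) overlapped with IGF2BP2, and DIS3L2 with SEMA4C. IGF2BP3 stood apart from both its neighbours in all 5 libraries, and IGDCC3 (1.23 to 2.40 CPM per kb) stood above TRIM71 (0.749 to 1.07). The place of HMGA2 rests on the transcript chosen: over the union of its exons, 14037 nt, its mock level was 12.6 CPM per kb. DIS3L2 was at 3.79 CPM per kb over its exon union of 6016 nt, which puts it below SEMA4C. LIN28A, the paralog of LIN28B, had at most 1 read in any library.

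**Figure D2:**
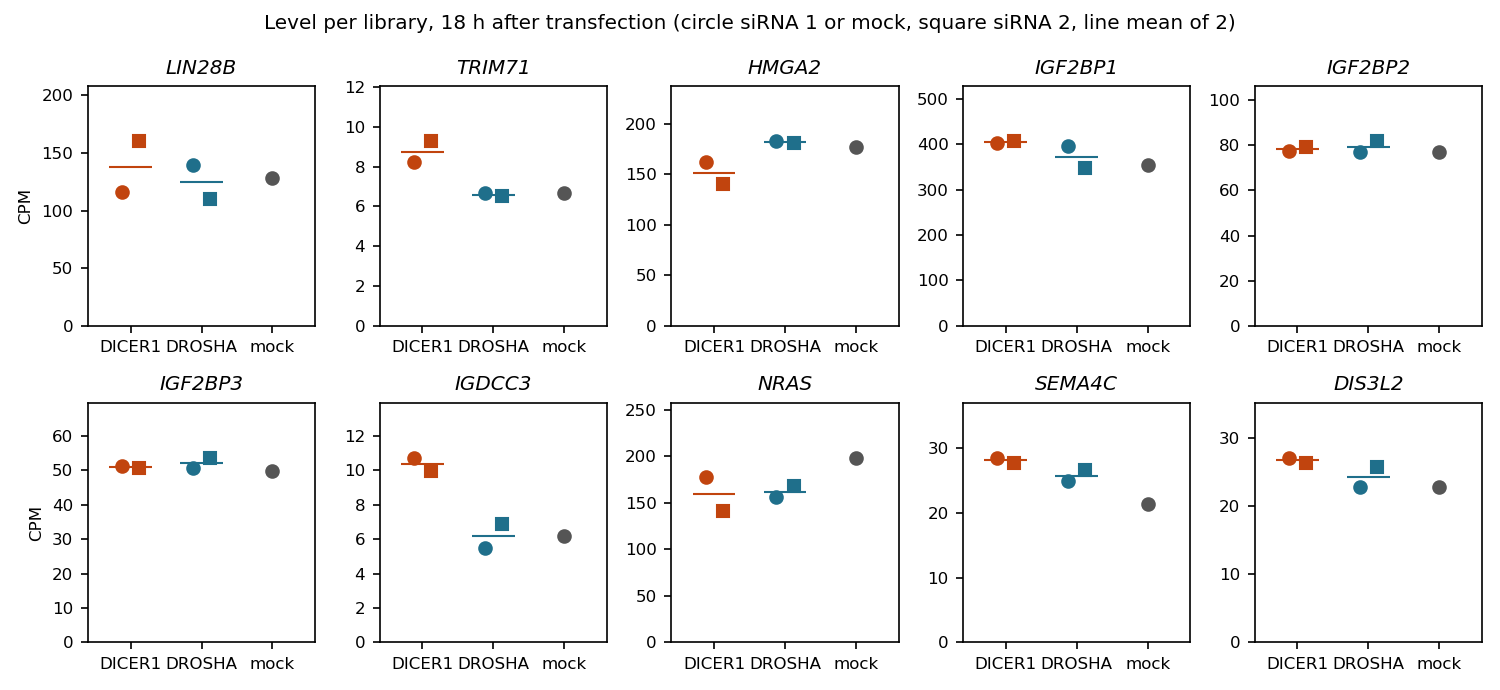
Levels in CPM of the 10 genes, with a panel for each gene and its axis starting at 0. Points are single libraries (circles siRNA 1 or mock, squares siRNA 2) and lines are means of the 2 siRNA libraries. Both DICER1 siRNA libraries lie above the other 3 for IGDCC3, TRIM71, IGF2BP1, SEMA4C and DIS3L2. For NRAS the mock lies above all 4 siRNA libraries.

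The regulators of let-7 come first. LIN28B, the block to let-7 maturation, was at 116 and 160.1 CPM with DICER1 siRNA 1 and 2, at 139.9 and 110.0 CPM with DROSHA siRNA 1 and 2, and at 128 CPM in the mock. Each pair of siRNA libraries lay on both sides of the mock. Against the mock, the log2 fold change was 0.11 ± 0.21 with the DICER1 siRNAs and −0.03 ± 0.21 with the DROSHA siRNAs, with edgeR adjusted p of 0.968 and 0.998. The 95% interval for the DICER1 siRNAs, 0.760 to 1.54-fold, takes in moderate changes either way. LIN28B was 1.38-fold higher with DICER1 siRNA 2 than with DICER1 siRNA 1, and only 0.971% of 5356 genes averaging 50 CPM or more differed more between these libraries. Between the DROSHA siRNA libraries LIN28B differed 1.27-fold, and 8.4% of the genes differed more.

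DIS3L2, the exonuclease that degrades let-7 hairpins once they carry a uridine tail, was at 27.1 and 26.4 CPM with the DICER1 siRNAs, at 22.9 and 25.8 CPM with the DROSHA siRNAs, and at 22.8 CPM in the mock. Both DICER1 siRNA libraries stood above the mock, and the DROSHA siRNA libraries stood at or above it. The log2 fold change with the DICER1 siRNAs was 0.23 ± 0.15 (edgeR adjusted p = 0.882). DIS3L2 holds no let-7 site, so it is the one gene of the 10 followed as part of the pathway and not as a target by seed match.

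TRIM71, an RNA-binding ubiquitin ligase that represses differentiation genes in embryonic cells, was at 8.25 and 9.27 CPM with the DICER1 siRNAs, at 6.66 and 6.50 CPM with the DROSHA siRNAs, and at 6.66 CPM in the mock. Both DICER1 siRNA libraries stood above the other 3, which were close together. These levels rest on few reads: 63 and 77 with the DICER1 siRNAs, 58 and 51 with the DROSHA siRNAs, and 56 in the mock, for which counting error alone allows 42.3 to 72.7 (exact Poisson 95% interval). The log2 fold change was 0.40 ± 0.21 with the DICER1 siRNAs (edgeR adjusted p = 0.87) and −0.02 ± 0.22 with the DROSHA siRNAs (edgeR adjusted p = 0.998).

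HMGA2, a chromatin protein of embryonic and tumour cells and a much-studied let-7 target, was at 162 and 140.8 CPM with the DICER1 siRNAs, at 183 and 181.5 CPM with the DROSHA siRNAs, and at 177 CPM in the mock. Both DICER1 siRNA libraries stood below the other 3 libraries, the opposite side from TRIM71. The log2 fold change against the mock was −0.23 ± 0.11 with the DICER1 siRNAs, with a 95% interval of −0.48 to 0.03 and an edgeR adjusted p of 0.87. Without DICER1 siRNA 2 the DICER1 value was −0.13, and without DICER1 siRNA 1 it was −0.33. With the DROSHA siRNAs the log2 fold change was 0.04 ± 0.11 (edgeR adjusted p = 0.992).

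The IGF2BP proteins bind mRNAs, protect them from decay, and are made mainly in the embryo and in tumours. IGF2BP1, with 5 let-7 sites the richest of the 3, was at 403 and 406 CPM with the DICER1 siRNAs, at 396 and 347 CPM with the DROSHA siRNAs, and at 354 CPM in the mock. The DICER1 siRNA libraries lay within 1.01-fold of each other and above the mock, while the DROSHA siRNA libraries lay on both sides of it. The log2 fold change with the DICER1 siRNAs was 0.19 ± 0.09 (edgeR adjusted p = 0.87), at a depth of 2720 reads or more in every library. IGF2BP2 was at 77.2 and 79.2 CPM with the DICER1 siRNAs, at 76.9 and 81.7 CPM with the DROSHA siRNAs, and at 77.1 CPM in the mock. IGF2BP3 was at 51.3 and 50.6 CPM with the DICER1 siRNAs, at 50.6 and 53.7 CPM with the DROSHA siRNAs, and at 49.8 CPM in the mock. Both paralogs were nearly level across the 5 libraries, with log2 fold changes between 0.02 and 0.07 against the mock, standard errors of 0.10 or 0.11, and edgeR adjusted p of at least 0.982.

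The last 3 genes act at or near the cell surface. IGDCC3, a transmembrane protein of the immunoglobulin superfamily, was at 10.7 and 9.99 CPM with the DICER1 siRNAs, at 5.51 and 6.88 CPM with the DROSHA siRNAs, and at 6.18 CPM in the mock. Both DICER1 siRNA libraries stood above the other 3 libraries, and the DROSHA siRNA libraries lay on both sides of the mock. In reads these levels are 82 and 83 with the DICER1 siRNAs, 48 and 54 with the DROSHA siRNAs, and 52 in the mock, with an exact Poisson 95% interval of 38.8 to 68.2 for the mock. The log2 fold change with the DICER1 siRNAs was 0.74 ± 0.23 against the mock, with an unadjusted p of 0.0153 and an adjusted p of 0.865 by edgeR. With the DROSHA siRNAs it was close to 0, with a standard error of 0.24 (edgeR adjusted p = 0.999).

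SEMA4C, a transmembrane semaphorin that signals through plexin receptors, was at 28.5 and 27.8 CPM with the DICER1 siRNAs, at 24.9 and 26.6 CPM with the DROSHA siRNAs, and at 21.4 CPM in the mock. The mock was the lowest library, so a single library sets the difference in both comparisons. SEMA4C stood 1.31-fold above the mock with the DICER1 siRNAs (log2 0.40 ± 0.14, edgeR unadjusted p = 0.0253, adjusted p = 0.865). With the DROSHA siRNAs it stood 1.20-fold above it (log2 0.27 ± 0.14, edgeR adjusted p = 0.978).

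NRAS, a small GTPase of growth factor signalling and an early reported let-7 target, was at 177.5 and 141.5 CPM with the DICER1 siRNAs, at 156 and 168 CPM with the DROSHA siRNAs, and at 198.5 CPM in the mock. The mock was the highest library. The log2 fold change was −0.32 ± 0.14 with the DICER1 siRNAs and −0.29 ± 0.14 with the DROSHA siRNAs (edgeR adjusted p = 0.865 and 0.978). Both values use the same mock library. Without DICER1 siRNA 2 the DICER1 value was −0.16, and without DICER1 siRNA 1 it was −0.49. NRAS differed 1.25-fold between the DICER1 siRNAs, and 2.73% of the genes with at least 50 CPM differed more.

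**Figure D3:**
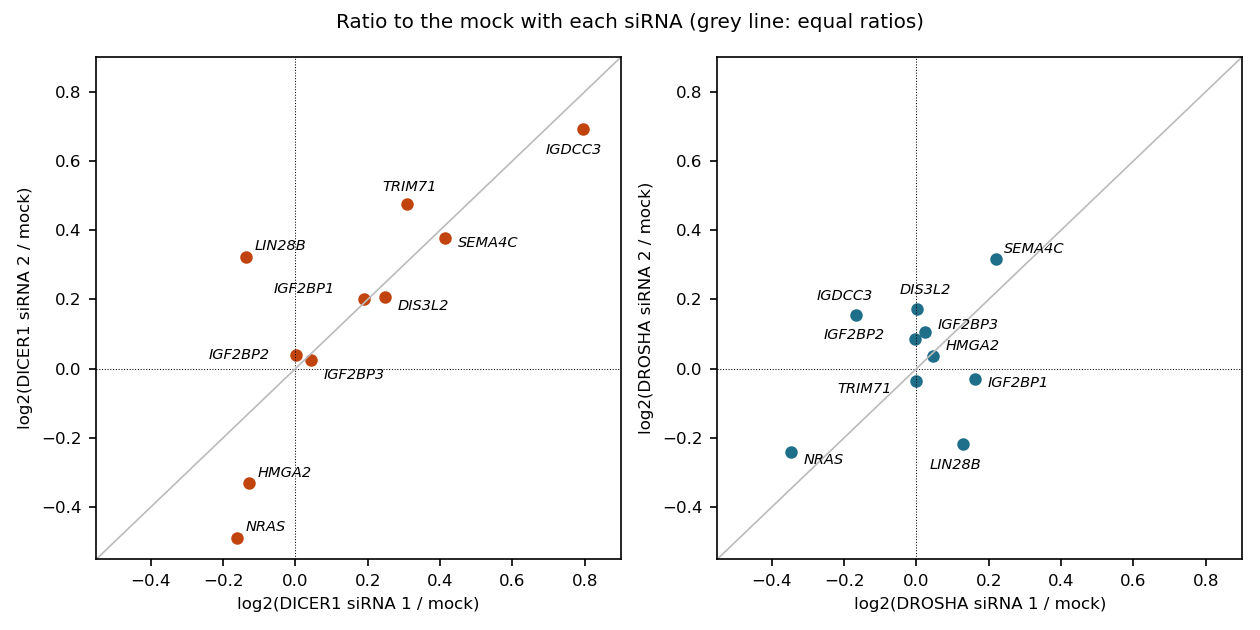
Log2 ratio to the mock with siRNA 1 (x axis) and siRNA 2 (y axis) for DICER1 (left) and DROSHA (right), each point being one gene. The DICER1 siRNAs place IGDCC3 at 0.80 and 0.69 but LIN28B at −0.14 and 0.32, and the DROSHA siRNAs place NRAS at −0.35 and −0.24.

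As a group, 7 of the 10 genes were higher than the mock in both DICER1 siRNA libraries: TRIM71, IGF2BP1, IGF2BP2, IGF2BP3, IGDCC3, SEMA4C and DIS3L2. Of all tested genes 36.7% were. For IGF2BP2 and IGF2BP3 the log2 ratios to the mock were only 0.003 to 0.042, less than counting error. HMGA2 and NRAS were lower in both DICER1 siRNA libraries, which held for 36.4% of all tested genes. Together 9 of the 10 did not overlap with the mock, against 73.1% of all tested genes. Their median log2 fold change was 0.15, against 0.00 over all tested genes. None passed edgeR's test, and 1 gene of 12234 did, DICER1 itself (0.00817%). IGDCC3 and SEMA4C had an unadjusted p under 0.05, as did 668 tested genes (5.46%). With the DROSHA siRNAs, 4 of the 10 were higher than the mock in both libraries (HMGA2, IGF2BP3, SEMA4C and DIS3L2) and 2 lower (NRAS, and TRIM71 by far less than counting error), against 31.5% and 32.5% of all tested genes. The smaller log2 ratio to the mock was 0.037 for HMGA2, 0.023 for IGF2BP3 and 0.0008 for DIS3L2. Together 6 of the 10 did not overlap with the mock, against 63.9% of all tested genes. Their median log2 fold change was 0.04, and 0.01 without DROSHA siRNA 2. None passed the test, which called 0.00817% of the genes, and 0 had an unadjusted p under 0.05 (3.69% of all tested genes). Without DROSHA siRNA 1 the median of the 10 was 0.06. A single DROSHA siRNA library was then left, and the spread came from the DICER1 siRNA pair alone. These comparisons share the single mock library.

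**Figure D4:**
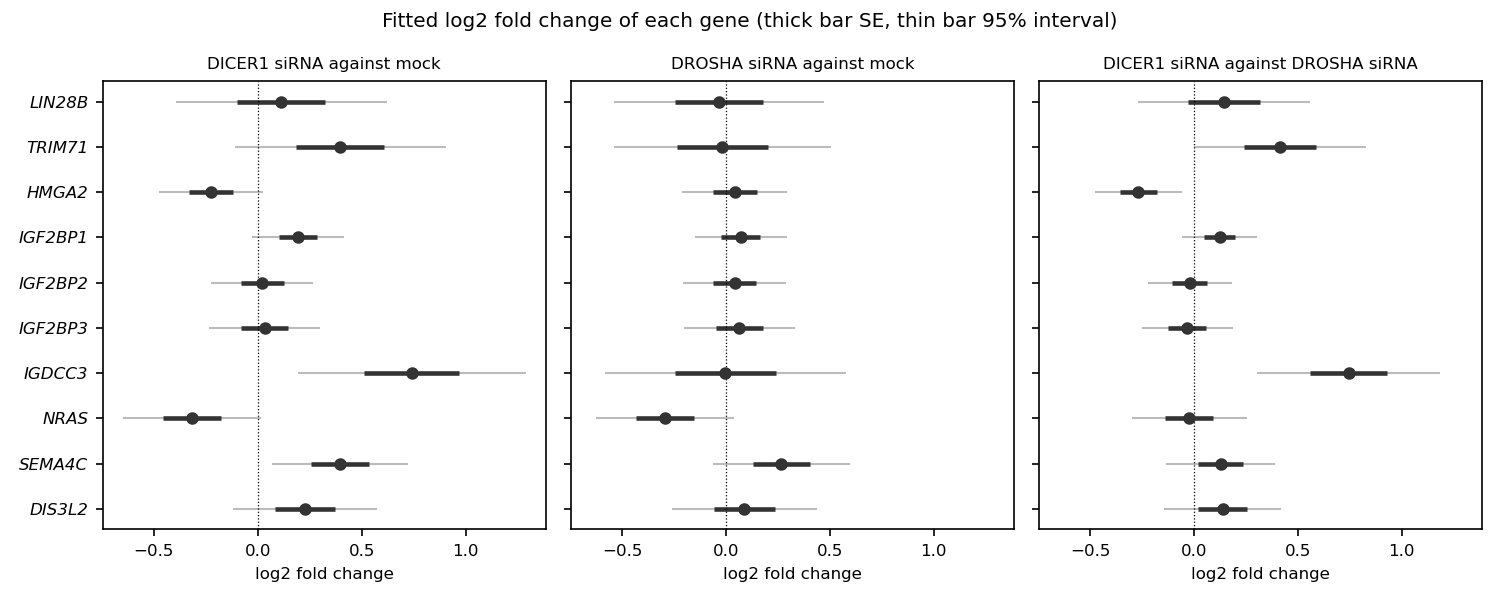
Fitted log2 fold changes of the 10 genes in the 3 comparisons, with thick bars for the standard error and thin bars for the 95% interval. With DICER1 siRNA the interval of IGDCC3 lies above 0 against the mock and against the DROSHA siRNAs. That of SEMA4C lies above 0 against the mock, and that of HMGA2 below 0 against the DROSHA siRNAs. With DROSHA siRNA against the mock the intervals of all 10 genes include 0.

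The DICER1 and DROSHA siRNA libraries were then compared directly, 2 against 2, without the mock as reference. IGDCC3 differed 1.67-fold (log2 0.74 ± 0.18, 95% interval 0.30 to 1.19), with an unadjusted p of 0.00553 and an adjusted p of 0.454 by edgeR. TRIM71 stood 1.33-fold higher with the DICER1 siRNAs (log2 0.41 ± 0.17, edgeR adjusted p = 0.6). HMGA2 stood at 0.831-fold (log2 −0.27 ± 0.09, 95% interval −0.48 to −0.06), with an unadjusted p of 0.0188 and an adjusted p of 0.523 by edgeR. NRAS stood at −0.02 ± 0.12 (95% interval −0.30 to 0.25) and LIN28B at 0.15 ± 0.17 (95% interval −0.27 to 0.56).

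Both DICER1 siRNA libraries were above both DROSHA siRNA libraries for 5 of the 10 genes: TRIM71, IGF2BP1, IGDCC3, SEMA4C and DIS3L2. Of all tested genes 20.9% were. HMGA2 was below in both (20.0% of all tested genes), and the groups overlapped for LIN28B, IGF2BP2, IGF2BP3 and NRAS. In either direction 40.9% of all tested genes did not overlap. Of the 10 genes 0 passed the test, which called DICER1 and DROSHA alone (0.0163%). IGDCC3 and HMGA2 were among the 1020 tested genes with an unadjusted p under 0.05 (8.34%). By the likelihood ratio test of edgeR IGDCC3 passed, with an adjusted p of 0.0342. That test called 130 of the 12234 tested genes. DESeq2 called 24 genes and limma 2, with 0 of the 10 genes in either. The log2 fold change of IGDCC3 was 0.59 without DROSHA siRNA 1 and 0.91 without DROSHA siRNA 2. In both cases a single DROSHA siRNA library was left, and the spread came from the DICER1 siRNA pair alone.

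The other genes of the pathway were taken from lists. Of 66 other reported let-7 targets in the table, 57 were tested and 0 passed edgeR's test in any comparison. Their median log2 fold change was 0.03 with the DICER1 siRNAs and 0.04 with the DROSHA siRNAs. With the DICER1 siRNAs 23 (40.4%) were higher than the mock in both libraries and 15 (26.3%) lower, against 36.7% and 36.4% of all tested genes. In the DROSHA siRNA libraries 21 (36.8%) were higher and 9 (15.8%) lower, against 31.5% and 32.5% of all tested genes. GDF6, a secreted growth factor, had the smallest p of the list with the DICER1 siRNAs (log2 −1.02 ± 0.47, edgeR unadjusted p = 0.067) and rests on 6 and 7 reads with the DICER1 siRNAs, against 14 reads in the mock. NR6A1, a nuclear receptor of germ and embryonic cells, was at 27.0 and 36.7 CPM with the DICER1 siRNAs, against 22.4 CPM in the mock (log2 0.51 ± 0.24). ARID3B, a DNA-binding protein, stood at 0.28 ± 0.15 with the DICER1 siRNAs and 0.33 ± 0.15 with the DROSHA siRNAs. HMGA1 stood at 0.00 and 0.01 and MYC at 0.04 and −0.04 with the DICER1 and DROSHA siRNAs.

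Among 24 tested regulators of let-7 biogenesis, 0 passed the test and the median log2 fold change was −0.05 with the DICER1 siRNAs and 0.00 with the DROSHA siRNAs. DGCR8, the partner of DROSHA, was at 188 and 173 CPM with the DROSHA siRNAs, against 122 CPM in the mock (log2 0.57 ± 0.10, edgeR unadjusted p = 0.000762, adjusted p = 0.978). ELAVL1, an RNA-binding protein, was at 252.5 and 201.5 CPM with the DICER1 siRNAs, against 314 CPM in the mock (log2 −0.47 ± 0.13, edgeR unadjusted p = 0.00975). HUWE1 and WDR82, protein-coding hosts of let-7 hairpins, stood between −0.11 and 0.10.

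Of 18 tested paralogs of the 10 genes 0 passed the test, with a median log2 fold change of 0.00 in both comparisons with the mock. TRIM2, a ubiquitin ligase of the same family as TRIM71, was at 33.4 and 39.5 CPM with the DICER1 siRNAs, at 47.4 and 42.2 CPM with the DROSHA siRNAs, and at 56.6 CPM in the mock. It lay below the mock in all 4 siRNA libraries while TRIM71 lay above it with the DICER1 siRNAs. The TRIM2 log2 fold change with the DICER1 siRNAs was −0.63 ± 0.14 (edgeR unadjusted p = 0.00364). SEMA4B, a paralog of SEMA4C, was at 21.9 and 22.4 CPM with the DICER1 siRNAs. It was at 20.0 and 21.3 CPM with the DROSHA siRNAs and at 17.1 CPM in the mock. Like SEMA4C, SEMA4B thus lay above the mock in all 4 siRNA libraries. With the DICER1 siRNAs SEMA4B stood at log2 0.37 ± 0.15 (edgeR unadjusted p = 0.042, adjusted p = 0.865). Of 15 tested genes of the insulin-like growth factor axis, whose mRNAs include targets of the IGF2BP proteins, 0 passed the test. With the DICER1 siRNAs 10 of them were higher than the mock in both libraries and 4 lower (66.7% and 26.7%, against 36.7% and 36.4% of all tested genes). In the DROSHA siRNA libraries 6 were higher and 7 lower (40.0% and 46.7%, against 31.5% and 32.5% of all tested genes). AKT1 had the smallest p of this list with the DICER1 siRNAs (log2 −0.28 ± 0.10, edgeR unadjusted p = 0.0335, adjusted p = 0.865). IGFBP5 stood at −0.40 ± 0.17 with the DICER1 siRNAs and −0.49 ± 0.17 with the DROSHA siRNAs. On the other side, with the DICER1 siRNAs IRS1 stood at 0.29 ± 0.18 and IGF2 at 0.48 ± 0.31. IGF2 had 28 and 33 reads with the DICER1 siRNAs, against 23 in the mock.

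All tested genes were also grouped by the number of let-7 sites on the longest-coding transcript. The 10280 genes with 0 sites had a median log2 fold change of 0.0014 with the DICER1 siRNAs and −0.0037 with the DROSHA siRNAs. The 1570 genes with 1 site had −0.0018 and −0.011, the 254 with 2 sites −0.0065 and −0.013, and the 76 with 3 or more sites 0.015 and −0.0099. Genes with more sites have longer 3' UTRs, with a median of 834.5 nt at 0 sites and 6422 nt at 3 or more. The medians of these 4 classes lay within 0.02 of 0 in both comparisons. Split by 8-mers instead, the median with the DICER1 siRNAs was 0.0053 in the 426 genes with 1, −0.08 in the 13 genes with 2, and 0.22 in the 6 genes with 3 or more. The last class holds TRIM71, IGDCC3 and IGF2BP1 among its 6 genes, and with the DROSHA siRNAs its median was −0.02. It is too small to describe genes beyond these. All these classes use the longest-coding transcript, which counts HMGA2 at 0 sites and LIN28B at 1. By the transcript with the most sites, 93 genes had 3 or more. Their medians were −0.026 with the DICER1 siRNAs and −0.013 with the DROSHA siRNAs.

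**Figure D5:**
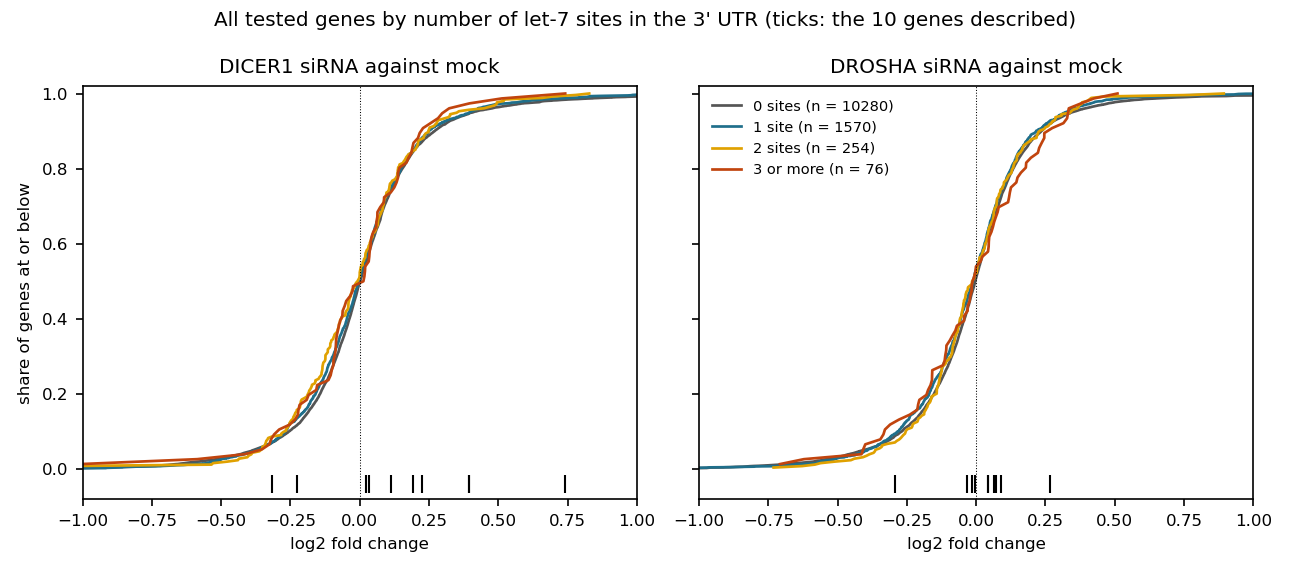
Cumulative share of all tested genes by log2 fold change with DICER1 siRNA (left) and DROSHA siRNA (right), split by the number of let-7 sites in the 3' UTR, with ticks for the 10 genes. The 4 curves cross 0 close together, and the tick furthest to the right on the left panel is IGDCC3 at 0.74.

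The genes whose pattern over the 5 libraries was most like that of 3 of the 10 were found by the distance between centred log2 CPM, over 10615 genes averaging 5 CPM or more. For LIN28B these were KCNJ8, C17orf103 and AMOT, at distances of 0.094 to 0.103. AMOT was at 83.6 and 114 CPM with the DICER1 siRNAs, at 95.6 and 79.4 CPM with the DROSHA siRNAs, and at 96.7 CPM in the mock. For TRIM71 they were C8orf82, LRRK2 and MAST3, at distances of 0.0502 to 0.0561. For HMGA2 they were CTNND1, AGK and TOMM22, at distances of 0.0344 to 0.0565. CTNND1 was at 140.8 and 124 CPM with the DICER1 siRNAs, at 159 and 162.5 CPM with the DROSHA siRNAs, and at 156 CPM in the mock. With 5 libraries and 10615 genes, close patterns arise readily, and no test was made of them.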

How the data were processed

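Gene counts were deposited by the authors as raw whole-number read counts per gene symbol, per the file headers and values. The submitters' processing notes name hg19, STAR, HTSeq, edgeR and CASAVA 1.8.2, with no order. Strand use is not stated, so antisense reads cannot be told apart. Genes reaching 1 CPM in 2 or more libraries were kept (99.93% of the reads). edgeR 4.0.16 in R 4.3.3 (TMM, quasi-likelihood F test, group only) was fitted to all 5 libraries, with 2 residual degrees of freedom. The single mock is assumed to vary like the siRNA pairs. Benjamini-Hochberg adjustment ran over 12234 genes, with a limit of 0.05. Standard errors are the log2 fold change over the square root of F. CPM uses TMM library sizes. The common coefficient of variation was 8.51%. Intervals on counts cover counting error only. The steps were tested on simulated data. Alternatives used limma 3.58.1 (voom), DESeq2 1.42.0, other scalings and left-out libraries.

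The genes and lists were chosen with earlier results of these data known. All 10 genes are named, with up to 4 genes of each list by smallest p against the mock and 3 closest patterns for LIN28B, TRIM71 and HMGA2. HMGA1 and MYC were named outside this rule, after their values were seen. Some results are not reported here. For 3' UTRs, 18079 symbols matched a GENCODE 29 coding transcript (709 through older symbols). GRCh38 supplied sequences only, and none of its coordinates were joined to the hg19 counts.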

Additional observations from a re-analysis of the deposited data

How the results depend on the processing

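Of 220 values of the 10 genes under other settings, 215 kept their sign and their side of the threshold. IGDCC3 in DROSHA siRNA against mock, close to 0, changed sign under RLE size factors (0.00014), library totals only (0.013), DESeq2 (0.0038) and with only the groups compared (0.00091). IGDCC3 in DICER1 siRNA against DROSHA siRNA passed by the likelihood ratio test (0.74), so that 1 of the 10 was called, against 0. For DICER1 siRNA against mock 1 gene was called, and 3 with no filter, 29 by the likelihood ratio test, 5 by DESeq2, 0 by limma voom, 4 with only the groups compared, and 0 to 5 with a library left out. For DROSHA siRNA against mock 1 was called, and 3 by the likelihood ratio test and 1 to 225 with a library left out. For DICER1 siRNA against DROSHA siRNA 2 were called, and 12 with no filter, 130 by the likelihood ratio test, 24 by DESeq2 and 1 to 427 with a library left out. The highest counts in the DROSHA siRNA comparisons came without DROSHA siRNA 1. The spread then came from the DICER1 siRNA pair alone, the narrowest of the pairs compared, so these counts do not measure variation between DROSHA siRNA libraries. None of the 10 genes was called with any library left out.

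With a library left out, 118 of 130 values of the 10 genes kept their sign. The others belong to genes whose ranges span 0. In DICER1 siRNA against mock this was LIN28B (−0.1343 without DICER1 siRNA 2, to 0.3208). In DROSHA siRNA against mock these were LIN28B (−0.2212 to 0.1319, the highest without DROSHA siRNA 2), TRIM71 (−0.03782 to 0.002512), IGF2BP1 (−0.03178 without DROSHA siRNA 1, to 0.1661) and IGDCC3 (−0.1632 to 0.1511). In DICER1 siRNA against DROSHA siRNA these were LIN28B (−0.104 to 0.355), IGF2BP2 (−0.06298 to 0.02195), IGF2BP3 (−0.07406 to 0.007748) and NRAS (−0.1969 to 0.1315).

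Medians of lists moved as follows with a library left out. In DICER1 siRNA against mock they lay between 0.02663 and 0.03447 for the other let-7 targets, −0.05225 and −0.04854 for the biogenesis regulators, and −0.03134 and 0.008775 for the paralogs. In DROSHA siRNA against mock they lay between 0.01463 and 0.05746 for the 10 genes, 0.01627 and 0.0434 for the targets and −0.01295 and 0.005825 for the regulators. In DICER1 siRNA against DROSHA siRNA they lay between 0.02854 (without DROSHA siRNA 2) and 0.1245 for the 10 genes, −0.02369 and 0.0156 for the targets, −0.06376 and −0.03273 for the regulators, and −0.05555 and 0.0734 for the paralogs.

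The siRNA numbers do not pair the libraries, since they name different siRNAs, and deviations of same-numbered libraries correlated at 0.0243. With a replicate block by number, DICER1 siRNA against DROSHA siRNA called 4 genes, and 0 of the 10.

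Scaling by library totals only moved some medians: in DICER1 siRNA against mock to 0.04985 for the other let-7 targets, −0.02949 for the biogenesis regulators and 0.0826 for the IGF axis, and in DROSHA siRNA against mock to 0.05435 for the targets and 0.01855 for the regulators. Genes with a let-7 8-mer had medians of 0.0051 in DICER1 siRNA against mock and 0.011 in DICER1 siRNA against DROSHA siRNA. The causes were not tested. At 48 to 83 reads, IGDCC3 and TRIM71 are limited by depth, and the single mock limits every comparison with it.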
